A study of Mus musculus with 3 samples.

Results

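Transcripts of 10 heat shock genes were followed in bone marrow derived macrophages (BMDMs) before and after exposure to borrelial lipoproteins. The members were chosen by symbol, namely Hspa1a, Hspa1b, Hspa8, Hsph1, Dnajb1, Hsp90aa1, Hsp90ab1, Hspd1, Hspe1 and Hsf1, and all 10 were present among the 32285 genes of the deposited matrices. BMDMs are macrophages grown from marrow in culture, here from female C3H/HeN mice aged 6 to 8 weeks. The study's culture methods describe pooled marrow, whereas its single-cell methods describe cells of 3 mice that were treated separately before pooling. Ctrl cells (labelled UI) received PBS, LP1 cells received 1 µg/mL of purified lipoproteins of Borrelia burgdorferi (BbLP) for 1 h, and LP4 cells received the same dose for 4 h. Cells of 3 wells were pooled per condition and 1 droplet library was made from each pool, so no difference below has a replicate check and no test between conditions was possible. By the study's methods the control was harvested together with LP4, so LP1 and Ctrl also differed in time on the plate.

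Heat shock proteins are chaperones that bind unfolded or partly folded proteins and help them fold, assemble or be degraded. HSP70 works with J-domain cochaperones such as HSP40 and with exchange factors such as HSP110, HSP90 finishes the folding of kinases and receptors, and HSP60 with its lid HSP10 folds proteins inside mitochondria. Heat shock factor 1 (Hsf1) binds repeats of the letters GAA and TTC in promoters and drives the stress-inducible members when unfolded proteins accumulate. In macrophages HSP90 clients include kinases of the signalling cascades below Toll-like receptors.

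The promoters of the stress-inducible pair are shown because the copies are so alike in sequence while their LP4 over Ctrl ratios were apart. Hspa1a (chr17:34969190-34972156) and Hspa1b (chr17:34956436-34959238) each have 1 exon, lie on the reverse strand and are 9952 bp apart in the GENCODE annotation of GRCm38. The 250 bases before each start, from RefSeq windows of GRCm38.p6, occupy chr17:34972157-34972406 for Hspa1a and chr17:34959239-34959488 for Hspa1b. Capitals mark the match to GAANNTTC, a head-to-head pair of heat shock units, which reads the same on both strands.
Hspa1a: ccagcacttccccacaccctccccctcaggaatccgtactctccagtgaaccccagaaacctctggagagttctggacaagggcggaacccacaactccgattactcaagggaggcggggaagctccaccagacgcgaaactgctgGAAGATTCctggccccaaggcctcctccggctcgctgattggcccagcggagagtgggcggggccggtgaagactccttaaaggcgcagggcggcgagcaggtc
Hspa1b: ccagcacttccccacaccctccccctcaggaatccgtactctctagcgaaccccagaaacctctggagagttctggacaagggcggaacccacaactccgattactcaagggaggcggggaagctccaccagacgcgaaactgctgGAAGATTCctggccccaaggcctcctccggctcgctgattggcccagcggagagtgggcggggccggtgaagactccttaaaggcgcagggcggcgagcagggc
Over the whole windows of 300 bases, which run 50 bases past the start, the genes differed at 4 positions and were 98.7% identical. With the Hspa1a base first and positions counted from 1 at the 5′ end of the window, the differences were C44T, T47C, T249G and C276T. None of them lies in the match, which starts at base 147 in either gene. Of 32851 promoter windows searched, 7.86% held GAANNTTC and 8.52% held the tail-to-tail pair TTCNNGAA.

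Windows were found for 6 of the 10 members, and those of Hspe1 and Hsph1 held longer runs of the same units. The mitochondrial pair Hspd1 (chr1:55077835-55088243) and Hspe1 (chr1:55088132-55091307) lies head to head, and the Hspe1 window shares 285 bases with a window of Hspd1 read from the other strand. The 30 bases shown for Hspe1 are chr1:55088053-55088082 on the forward strand. Those shown for Hsph1 are chr5:149636351-149636380 and chr5:149636287-149636316 on the reverse strand, the second of them past the start. For Hsph1, before and past refer to the start of the RefSeq window. The GENCODE gene (chr5:149614287-149636376) begins further upstream, so most of the first stretch lies inside it. Capitals mark the letters that belong to a match of TTCNNGAA, GAANNTTC or their three-unit forms GAANNTTCNNGAA and TTCNNGAANNTTC.
Hspe1: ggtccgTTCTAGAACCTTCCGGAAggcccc
Hsph1, before the start: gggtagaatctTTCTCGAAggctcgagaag
Hsph1, past the start: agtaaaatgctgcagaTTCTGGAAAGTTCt
A three-unit form on either strand was present in 0.603% of all windows, and those of Hspe1 and Hsph1 and the shared window of Hspd1 were among them. No match was found in the windows of Dnajb1 or the other window of Hspd1. A match describes letters and does not show that a factor was bound. Only exact matches were searched, so imperfect repeats are unmarked and a window without a match may still hold one. Hspa8, Hsp90aa1, Hsp90ab1 and Hsf1 had no entry.

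The libraries held 6071 (Ctrl), 5065 (LP1) and 4670 (LP4) cells after the limits on UMIs (unique molecular identifiers, counts of captured molecules), genes and mitochondrial share. Their summed depth was 35688939, 52475723 and 61402275 UMIs, and the median cell held 5133, 9343 and 11784 UMIs. Levels are therefore given in CPM, UMIs of a gene per 1000000 UMIs of the library, and shares of cells are given after thinning each cell to 2000 UMIs. All 8 macrophage markers exceeded 5 CPM in every library and summed to 11644, 12194 and 11887 CPM, whereas T cell and erythroid markers summed to under 1 CPM. Markers of other cells were present too, as 10 neutrophil markers summed to 564, 465 and 749 CPM, 10 dendritic cell markers to 155 CPM in Ctrl with a like sum in the others, and 7 stromal markers to 5.35, 6.29 and 21.4 CPM, the neutrophil and stromal sums being highest in LP4. With only the clusters A to F described below, which leave out the neutrophil-like, dendritic cell-like and remaining small clusters, the median log2 ratio of the 10 genes at LP4 over Ctrl was -0.17, beside -0.18 with all kept cells. The mitochondrial share was 1.97% in the median Ctrl cell, 2.84% in LP1 and 3.17% in LP4, and 18, 43 and 273 barcodes exceeded its limit. From 3 to 9 kept barcodes were shared between any 2 libraries, and doublets were not called. Intervals are exact 95% intervals and cover counting error only.

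In CPM, Hspa1b and Hsp90aa1 were higher and Hsph1, Dnajb1, Hsp90ab1, Hspd1 and Hspe1 were lower in LP4 than in Ctrl by more than counting error. Hspa8 was also lower in CPM by more than counting error, but by a small step (log2 ratio -0.07, -0.09 to -0.05). The intervals of Hspa1a (0.11) and Hsf1 (-0.02) reached across 0. The 10 genes together summed to 3219, 3085 and 2699 CPM in Ctrl, LP1 and LP4, that is 0.322%, 0.309% and 0.270% of all UMIs. At LP1 over Ctrl, 0 of the 9 members that reached 5 CPM in a library were at least 1.5-fold higher or lower, where 4.29% of 9517 genes were higher and 3.28% lower by that fold. At LP4 over Ctrl, 2 of the 9 (Hsph1 and Hsp90ab1) were at least 1.5-fold lower, close to the 24.4% of all genes. None (0) of the 9 were higher, beside 19.7% of all genes. At LP4 over LP1, only Hsph1 among the 9 was past 1.5-fold, on the lower side, where 19.9% of all genes were lower and 16% higher. Hspa1b stayed under 5 CPM in every library and is outside these counts, although it showed the widest difference of the 10 at 4 h.

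**Figure D1:**
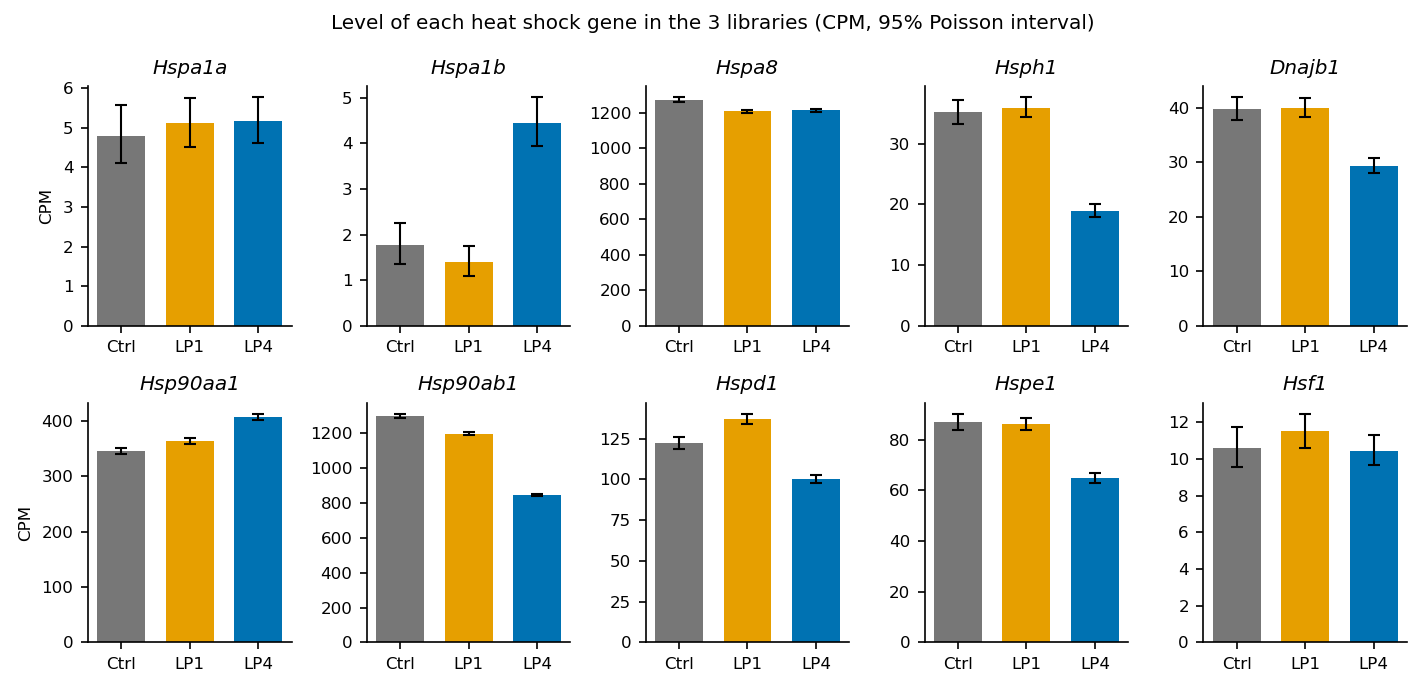
Bars give the level of each of the 10 heat shock genes in CPM in the Ctrl, LP1 and LP4 libraries (1 library each), with exact 95% Poisson intervals. Hspa1b stands higher in LP4, and Hsph1, Dnajb1, Hsp90ab1, Hspd1 and Hspe1 stand lower in LP4 than in the other libraries.

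The median log2 ratio of the 10 genes was 0.02 at LP1 over Ctrl (all genes tested, -0.02), -0.18 at LP4 over Ctrl (all genes, -0.09) and -0.27 at LP4 over LP1 (all genes, -0.09). A ratio between libraries depends on how they are scaled. The median LP4 over Ctrl ratio of all genes was -0.09 in CPM, 0.08 under TMM scaling and 0.11 under median-of-ratios scaling, and the members' median was -0.18, -0.011 and 0.026. Each of these scalings adds the same amount to the log2 ratio of every gene. A ratio relative to the median of all genes is therefore the same under all 3 by construction, which is no check of its value. Such relative ratios are given beside the CPM ratios at 4 h.

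**Figure D2:**
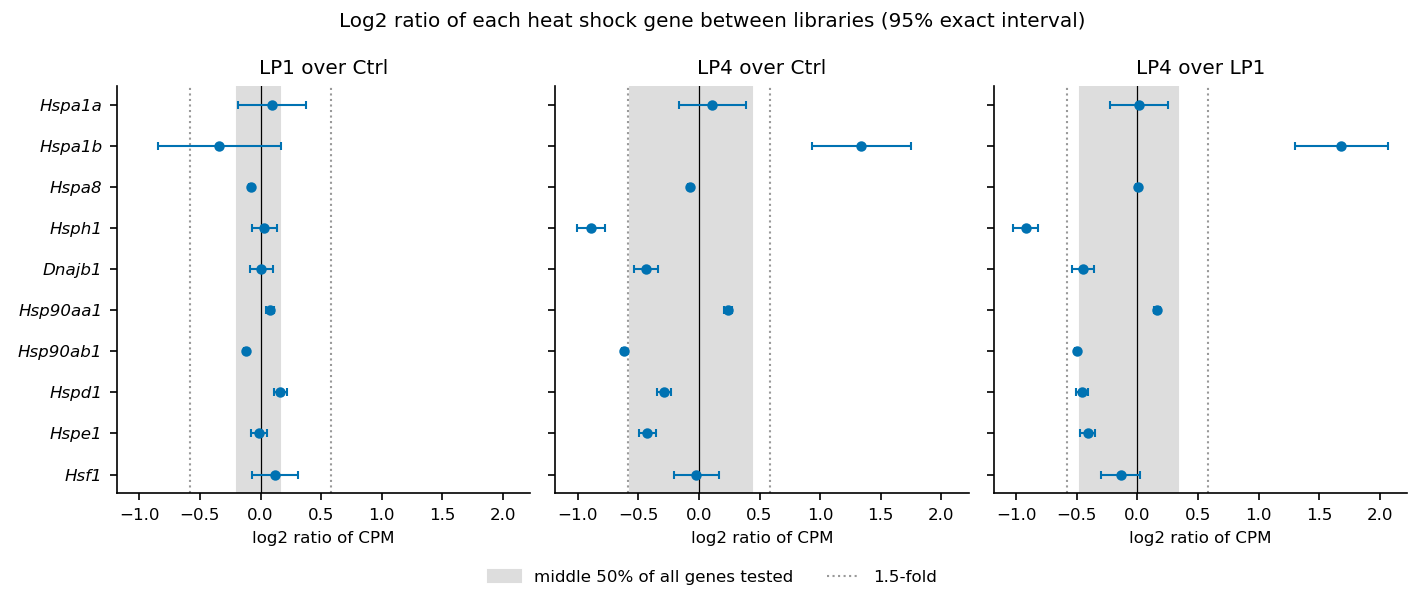
Points give the log2 ratio of CPM of each heat shock gene for LP1 over Ctrl, LP4 over Ctrl and LP4 over LP1, with exact 95% intervals for counting error, on a shaded band that holds the middle 50% of all 9517 genes tested and dotted lines at 1.5-fold. At LP1 over Ctrl, Hspa1b (-0.34, interval across 0) lies farthest from 0, and the other points lie between -0.12 and 0.16. At LP4 over Ctrl, Hspa1b (1.33) and Hsph1 (-0.89) lie outermost.

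Hspa1a and Hspa1b, which encode the stress-inducible cytosolic HSP70, were scarce. Hspa1a was at 4.79 CPM in Ctrl (171 UMIs, interval 4.10 to 5.57), 5.11 after 1 h (268 UMIs, 4.51 to 5.76) and 5.16 after 4 h (317 UMIs, 4.61 to 5.76). These intervals overlapped, and the log2 ratio was 0.09 at LP1 over Ctrl (-0.19 to 0.38) and 0.11 at LP4 over Ctrl (-0.17 to 0.38). Hspa1b was at 1.77 CPM in Ctrl (63 UMIs, 1.36 to 2.26), 1.39 after 1 h (73 UMIs, 1.09 to 1.75) and 4.45 after 4 h (273 UMIs, 3.93 to 5.01). LP4 stood apart from both other libraries, 2.52-fold above Ctrl (1.91 to 3.37) and 3.20-fold above LP1 (2.46 to 4.20).

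The Hspa1b log2 ratio at LP4 over Ctrl was 1.33 (0.93 to 1.75), or 1.43 relative to the median of all genes. Hspa1a thus made up 73.1% of the UMIs of the pair in Ctrl (66.9 to 78.6), 78.6% at 1 h (73.9 to 82.8) and 53.7% at 4 h (49.6 to 57.8). The LP4 interval did not overlap the others. The sum of the pair was 6.56, 6.50 and 9.61 CPM, with a log2 ratio of 0.55 at LP4 over Ctrl (0.33 to 0.78). Reads from near-identical copies can be lost or split in counting, so both levels are uncertain. In the annotated transcripts, 82.4% of the 50-base words of the Hspa1a coding sequence also occur in Hspa1b. In the last 500 bases, at the end this assay reads from, 0 of 451 such words do. These are reference sequences, and how reads were divided between the copies was not tested.

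Few cells held a UMI of the pair, and seldom more than 1. Before thinning, a UMI of either gene was found in 213 Ctrl cells (3.51%), 299 LP1 cells (5.90%) and 480 LP4 cells (10.3%), with a single UMI in 197, 263 and 395 of them. The largest sum in any cell was 6, 4 and 5 UMIs. Cells with a UMI were deeper (medians 6174, 11151 and 13821.5 UMIs) than cells without (5106, 9234.5 and 11544.5). At 2000 UMIs per cell, Hspa1a was found in 0.824%, 1.17% and 0.670% of cells, an order that goes against the CPM and is not read as a difference. Hspa1b was found in 0.336% (0.205 to 0.519), 0.257% (0.137 to 0.440) and 1.12% (0.841 to 1.47), with LP4 above the others. In the neutrophil-like cells 0 of 32, 25 and 28 cells held a UMI of either gene, which with 3 cells as the limit that a count of 0 allows gives shares of up to 9.38%, 12% and 10.7%, at median depths of 2940, 5891 and 9261.5 UMIs, too few cells to serve as a background.

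Hspa8 (chr9:40800984-40810087), the constitutive HSP70, varied little between the libraries. It was at 1274 CPM in Ctrl (1263 to 1286), 1208 after 1 h (1199 to 1218) and 1213 after 4 h (1204 to 1222). The intervals of LP1 and LP4 overlapped and that of Ctrl lay above them by a small step, a log2 ratio of -0.07 at LP4 over Ctrl (-0.09 to -0.05) that turned to 0.10 under TMM and 0.13 under median-of-ratios scaling. Relative to the median of all genes it was 0.02. Hspa8 was found in 89.6%, 86.4% and 87.1% of cells at 2000 UMIs.

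Hsph1 (chr5:149614287-149636376) encodes HSP110, which exchanges nucleotide on HSP70, and it was the member lowest against control at 4 h. It was at 35.1 CPM in Ctrl (33.2 to 37.1), 35.9 after 1 h (34.3 to 37.6) and 18.9 after 4 h (17.9 to 20.1). Ctrl and LP1 overlapped and LP4 lay below both, 1.86-fold under Ctrl. The log2 ratio was -0.89 (-1.01 to -0.78) at LP4 over Ctrl and -0.92 (-1.03 to -0.82) at LP4 over LP1, and the first was -0.80 relative to the median of all genes. Cells with an Hsph1 UMI were 6.02% (5.43 to 6.65), 6.79% (6.11 to 7.52) and 3.33% (2.83 to 3.89) at 2000 UMIs.

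Dnajb1 (chr8:83608193-83612653) encodes HSP40, the J protein that hands substrates to HSP70, and it stood lower in LP4 by a smaller step. It was at 39.8 CPM in Ctrl (37.7 to 41.9), 40.0 after 1 h (38.3 to 41.7) and 29.4 after 4 h (28.0 to 30.8). The log2 ratio at LP4 over Ctrl was -0.44 (-0.54 to -0.34), within the middle 50% of all genes (-0.57 to 0.44), and -0.34 relative to their median. At LP1 over Ctrl it was 0.01 (-0.09 to 0.11), and ranged from -0.02 to 0.08 over the alternative settings. The share of cells with a UMI was 7.28%, 7.78% and 5.41%.

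The cytosolic HSP90 genes differed from control in opposite directions. Hsp90aa1 (chr12:110690605-110702728), the alpha form, was at 346 CPM in Ctrl (340 to 352), 365 after 1 h (359 to 370) and 408 after 4 h (403 to 413), each above the one before. Hsp90ab1 (chr17:45567775-45573271), the beta form usually described as constitutive, was at 1298 CPM in Ctrl (1286 to 1310), 1195 after 1 h (1186 to 1205) and 845 after 4 h (838 to 852), each below the one before. At LP4 over Ctrl the log2 ratios were 0.24 (0.21 to 0.27) for Hsp90aa1 and -0.62 (-0.64 to -0.60) for Hsp90ab1, and 0.33 and -0.53 relative to the median of all genes. The 1.5-fold call for Hsp90ab1 depends on the scaling, since its ratio was -0.45 under TMM and -0.41 under median of ratios.

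Hsp90aa1 thereby made up 21.0% of the UMIs of the pair in Ctrl (20.7 to 21.4), 23.4% at 1 h (23.1 to 23.7) and 32.5% at 4 h (32.2 to 32.9). This share is formed within a library and does not depend on the scaling. The sum of the pair was 1643, 1560 and 1253 CPM, as Hsp90ab1 gave most of it. At 2000 UMIs, 44.1%, 45.9% and 53.1% of cells held an Hsp90aa1 UMI and 88.4%, 86.6% and 75.6% held an Hsp90ab1 UMI.

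The mitochondrial chaperonin genes shared a pattern of lower levels at 4 h. Hspd1, which encodes HSP60, was at 122 CPM in Ctrl (119 to 126), 137 after 1 h (134 to 140) and 100.04 after 4 h (97.6 to 103). Hspe1, which encodes the HSP10 lid, was at 87.1 CPM in Ctrl (84.0 to 90.2), 86.2 after 1 h (83.7 to 88.7) and 64.8 after 4 h (62.8 to 66.9). LP4 was the lowest library for both, and Hspd1 alone of the 2 was above Ctrl at 1 h, by 0.16 (0.11 to 0.22) on the log2 scale. Hspe1 at LP1 over Ctrl was -0.01 and turned to 0.06 under TMM and median-of-ratios scaling.

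At LP4 over Ctrl the log2 ratio was -0.29 (-0.35 to -0.23) for Hspd1 and -0.43 (-0.49 to -0.36) for Hspe1, or -0.20 and -0.33 relative to the median of all genes. Hspd1 made up 58.4%, 61.4% and 60.7% of the UMIs of the pair. The mitochondrial share of UMIs moved with Hspd1, Hspe1, Hsp90ab1 and Hsp90aa1 within each library. Between the third of cells with the highest mitochondrial share and the third with the lowest, the Hspd1 log2 ratio was 0.25 (Ctrl), 0.39 (LP1) and 0.70 (LP4), and the Hspe1 ratio was 0.21, 0.31 and 0.51. For Hsp90ab1 it was 0.28, 0.24 and 0.23, and for Hsp90aa1 it was 0.14, 0.16 and 0.11. In LP4 it was also 0.62 for Hspa1b, 0.52 for Hsph1 and -0.35 for Dnajb1. In Ctrl and LP1 the intervals of Hspa1b, Hsph1 and Dnajb1 reached across 0. There the ratios were 1.05 and -0.27 for Hspa1b, -0.09 and -0.01 for Hsph1, and 0.05 and 0.04 for Dnajb1. The median mitochondrial share was higher in LP4 than in Ctrl while Hspd1, Hspe1, Hsp90ab1 and Hsph1 were lower there, and its part in the difference between libraries was not tested.

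Hsf1 (chr15:76477422-76501913), the transcription factor, was at 10.6 CPM in Ctrl (9.58 to 11.7), 11.5 after 1 h (10.6 to 12.5) and 10.5 after 4 h (9.66 to 11.3). All intervals overlapped. Its log2 ratio was 0.12 (-0.07 to 0.31) at LP1 over Ctrl and -0.02 (-0.21 to 0.16) at LP4 over Ctrl, where the sign turned under TMM (0.15) and median-of-ratios (0.18) scaling. These intervals leave room for a difference of about 1.24-fold at 1 h.

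To see whether the whole culture or some of its cells carried these levels, cells were clustered without any of the chaperone genes. Of 10 clusters, 7 (A to G) had 50 cells or more from each library and were compared. A (4583 cells), B (4411), C (2596) and D (1399) were macrophage-like, F (999) was cycling-like and G (223) was dendritic cell-like. A was led by Egr3, Nr4a3 and Apoe, and E (1350 cells) by Nptx1, Ccnd1 and the replication genes Hells and Mcm4. E was macrophage-like by the same rule as A to D, with 6 of the 8 macrophage markers in most of its cells, though replication genes were among those that led it. The share of each cluster was not compared between libraries. Cells grouped as A may differ between libraries, as at a finer resolution of 0.8 the cluster led by Egr3 took in 27.1% (Ctrl), 23.1% (LP1) and 4.37% (LP4) of each library, and another led by Gbp4 took in 1.63%, 1.34% and 22.8%.

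The Hsp90aa1 ratio was not alike across clusters. In cluster A it stood at 180, 178 and 359 CPM (Ctrl, LP1, LP4), a log2 ratio of 0.99 at LP4 over Ctrl (0.91 to 1.08). In cluster C it was 0.33 (0.26 to 0.39), and in cluster E, where Hsp90aa1 was at 553, 540 and 502 CPM, it was -0.14 (-0.23 to -0.05), a sign that turns with the factors of TMM and median of ratios, which add 0.17 and 0.21. Cluster A was thus far below the others before and at 1 h and among them at 4 h, and the fold between the highest and lowest cluster narrowed from 3.07 in Ctrl and 3.13 in LP1 to 1.64 in LP4. At the finer resolution of 0.8, Hsp90aa1 passed 1.5-fold at LP4 over Ctrl in 1 of 9 clusters. That cluster was led by Egr3 (0.93) and took in 4.37% of LP4, and the Gbp4-led cluster did not pass. At the coarser resolution of 0.3, it passed in 1 of 4 clusters, again led by Egr3 (0.94).

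Hsp90ab1 was below its Ctrl level at 4 h in 7 of 7 clusters, past 1.5-fold in 5, with log2 ratios from -0.81 (G) to -0.51 (F). With the factors of TMM or median of ratios the ratios stayed below 0 in all 7, but G alone was past 1.5-fold. The share of Hsp90aa1 in the pair was above its Ctrl value at 4 h in each of the 7 clusters. It went from 16.3% to 35.7% in A, from 21.3% to 31.6% in B, from 24.9% to 31.8% in E and from 27.1% to 36.3% in F. The intervals of Ctrl and LP4 did not overlap in any of the 7.

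**Figure D3:**
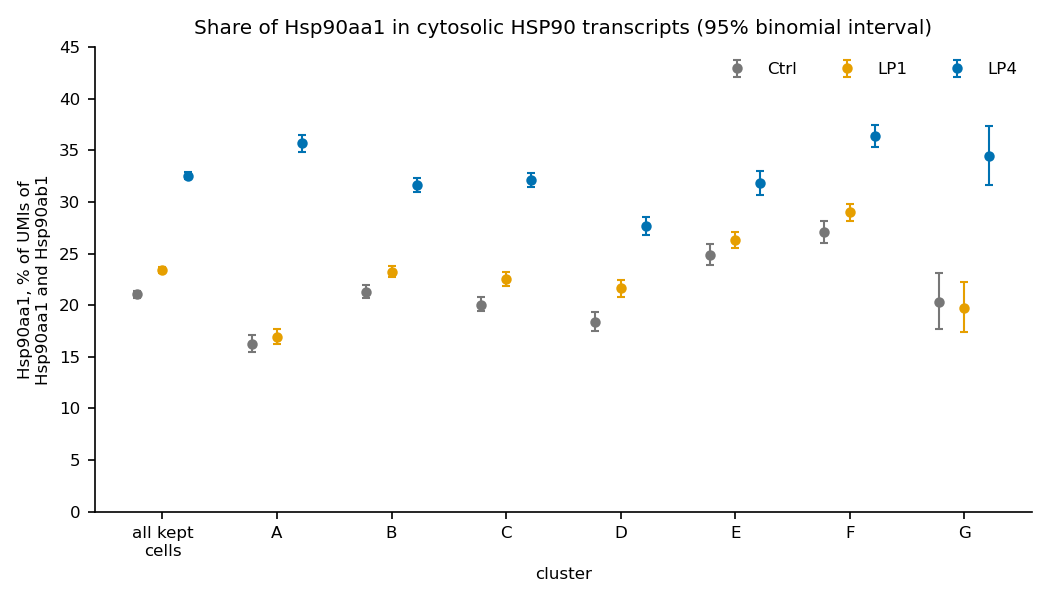
Points give the share of Hsp90aa1 among the UMIs of Hsp90aa1 and Hsp90ab1 in percent, for all kept cells and for clusters A to G, in the Ctrl, LP1 and LP4 libraries, with exact 95% binomial intervals. LP4 lies highest in every cluster, from 27.7% in D to 36.3% in F, and the Ctrl and LP1 points of cluster A (16.3% and 17.0%) lie lowest.

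Hsph1 and Dnajb1 stood below their Ctrl level at 4 h in 7 of 7 clusters. Hsph1 passed 1.5-fold in 6 of them (5 under TMM and median of ratios). Its interval reached across 0 in F (-0.39, -0.81 to 0.03) and in G (-1.49, -3.10 to 0.006), where 11 UMIs were found in Ctrl and 7 in LP4. The Dnajb1 interval reached across 0 in E (-0.29, -0.69 to 0.11). The Hsph1 level varied 4.33-fold among clusters in Ctrl, from 12.2 CPM in A to 53.0 in E. Dnajb1 was at 56.1 CPM in Ctrl in A, where Hsph1 was lowest, and at 31.1 in B.

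Hspd1 and Hspe1 were below Ctrl at 4 h in 7 of 7 clusters in CPM, and each passed 1.5-fold in 2 (1 under TMM and median of ratios), but the Hspd1 ratios of C (-0.05), D (-0.16) and F (-0.11) and the Hspe1 ratio of F (-0.10) were smaller than the 0.17 that TMM adds. In E, the cluster led by replication genes, Hspd1 was at 251, 249 and 166 CPM, the highest level in Ctrl and LP1 and behind F (177 CPM) in LP4, where the intervals of E and F overlapped. In cluster A it was at 51.4, 56.6 and 44.6 CPM. Across 23 points (clusters within libraries) the levels of the pair went together with a Pearson correlation of 0.82, a description over points that share libraries and culture. By the same measure the genes most like Hspd1 among 3791 searched were Nhp2 (0.97), Eef1g (0.97) and Tpi1 (0.96). Those most like Hspa8 were Rpl27 (0.83), H2afz (0.82) and Samsn1 (0.80), and those most like Hspa1a were Anxa5 (0.78), Eea1 (0.77) and Agfg1 (0.77). The Hspa1a values are the highest of 3792 genes over 23 points, and some points held 1 UMI of it. They rest on few counts and are not read as a relation between genes.

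**Figure D4:**
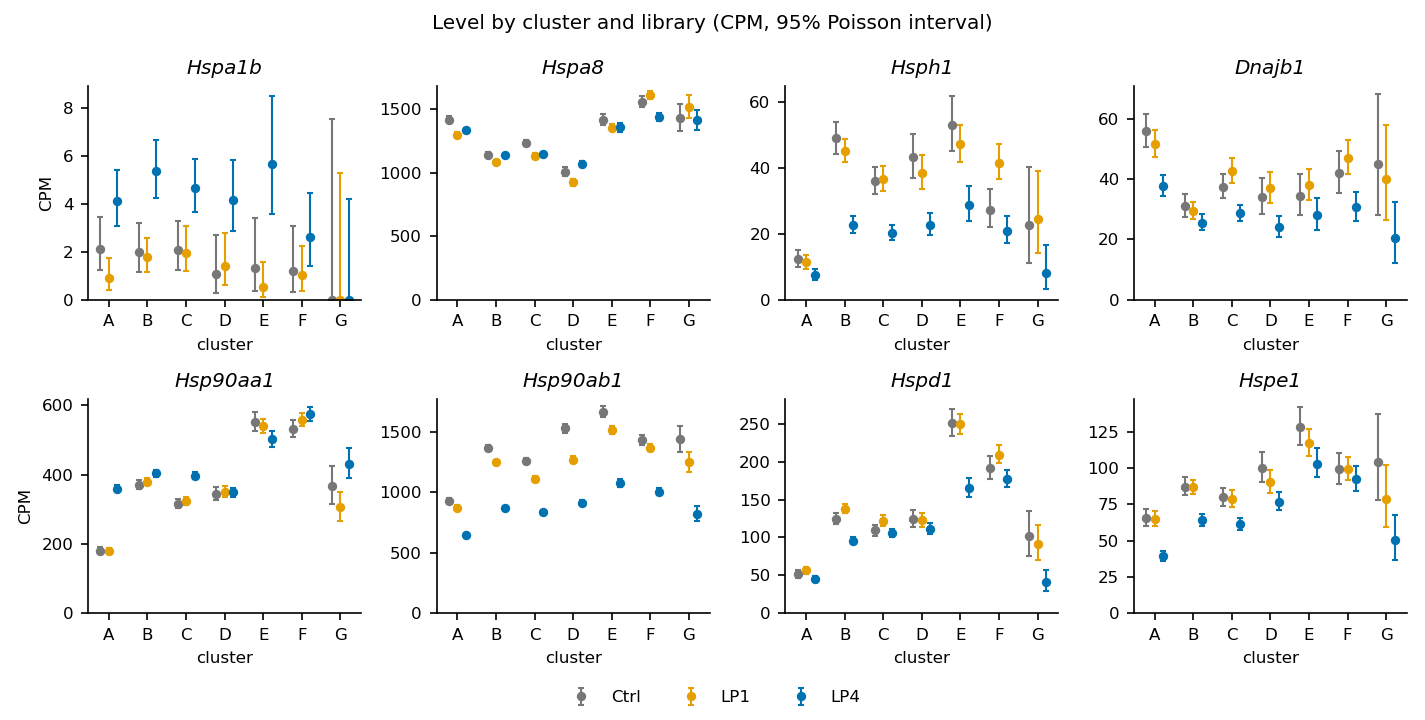
Points give the level of 8 of the heat shock genes in CPM by cluster (A to G) and library (Ctrl, LP1, LP4) with exact 95% Poisson intervals. LP4 lies lowest in CPM in all 7 clusters for Hsph1, Dnajb1, Hsp90ab1, Hspd1 and Hspe1 (under TMM, Hspd1 stays below Ctrl in 4 and Hspe1 in 6), and Hsp90aa1 in cluster A lies at 180, 178 and 359 CPM.

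Hspa1b exceeded its Ctrl level at 4 h in all 6 clusters with a UMI, with log2 ratios from 0.96 (A) to 2.09 (E). The interval reached below 0 in F (-0.58 to 3.19), and no Hspa1b UMI was found in G in any library. Hspa1a was above Ctrl in 4 clusters and below it in 3 in CPM (6 and 1 under TMM and median of ratios). In D it went from 2 UMIs in Ctrl (0.52 CPM) to 14 in LP1 (2.46 CPM) and 26 in LP4 (3.26 CPM), and the log2 ratio of 2.64 at LP4 over Ctrl (0.64 to 5.76) was the one among the 7 whose interval lay clear of 0. Hspa8 kept within 0.12 on the log2 scale of its Ctrl level in CPM in every one of the 7 clusters at 4 h, between -0.12 (F) and 0.08 (D). It was highest in the cycling-like cluster F (1562, 1614 and 1438 CPM) and lowest in D (1009, 924 and 1066 CPM). The Hsf1 ratio was not alike across clusters, above Ctrl at 4 h in 3 and below it in 4 in CPM (4 and 3 under TMM). At LP4 over Ctrl it was 0.62 in A (0.15 to 1.12) and -0.97 in E (-1.62 to -0.33). In the other clusters compared the Hsf1 interval reached across 0. The directions in CPM given by cluster at LP4 over Ctrl for Hspa1b, Hsph1, Dnajb1, Hsp90ab1, Hspd1 and Hspe1 held in all 4 and all 9 clusters compared at Leiden resolutions (a setting for how finely cells are split) of 0.3 and 0.8, except that Hspa1b was above Ctrl in 8 of 9.

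The other genes of the chaperone network were counted in 9 lists of 90 genes, of which 71 reached 5 CPM in a library. At LP1 over Ctrl 3 of the 71 (4.23%) were at least 1.5-fold higher and 0 lower, beside 4.29% and 3.28% of all genes. At LP4 over Ctrl 6 (8.45%) were higher and 11 (15.5%) lower, beside 19.7% and 24.4% of all genes. At LP4 over LP1 2 (2.82%) were higher and 7 (9.86%) lower, beside 16% and 19.9%. The LP4 over Ctrl split turned with the scaling, to 9 higher and 4 lower under TMM (all genes, 26.1% and 17.3%) and 10 higher and 3 lower under median of ratios (27.4% and 15.9%). The median log2 ratio of the 71 at LP4 over Ctrl was -0.05, beside -0.09 for all genes.

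In CPM, 7 of 31 partners of HSP70 and HSP90 (22.6%) were at least 1.5-fold lower at LP4 over Ctrl, close to the 24.4% of all genes. None (0) were higher, beside 19.7% of all genes. Under TMM 4 were lower (12.9%) and 2 higher (6.45%), beside 17.3% and 26.1% of all genes. Those 2 were Dnaja2 (0.54 in CPM) and Ptges3 (0.55 in CPM). Among 13 J proteins of cytosol and nucleus, Dnajb4, a relative of Dnajb1, went from 34.1 CPM in Ctrl and 35.5 in LP1 to 11.2 in LP4, a log2 ratio of -1.60 (-1.74 to -1.47). Dnajb2 (-0.92) and Dnajc9 (-0.64) were also lower. Among 8 exchange factors and partners of HSP70, Stub1, the ubiquitin ligase CHIP, was at -0.77 and St13 at -0.59, whereas Bag3 was at 0.22 (43.5, 50.5 and 50.7 CPM). Of 10 HSP90 cochaperones, Cdc37, which brings kinases to HSP90, was at -0.74 and Aarsd1 at -0.84. Of these, Dnajb4, Dnajb2 and Aarsd1 passed 1.5-fold under all 3 scalings. Hspa13, an HSP70 relative, was on the higher side at 0.72 (16.4, 20.9 and 27.0 CPM). Hspa14, another relative, was at 24.9, 29.1 and 18.1 CPM, past 1.5-fold lower at LP4 over LP1 (-0.69) and not at LP4 over Ctrl (-0.46).

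Of 14 genes of the cytosolic chaperonin TRiC and its helper prefoldin, 3 were higher and 3 lower at LP4 over Ctrl in CPM. These counts were close to the 19.7% and 24.4% of all genes. Under TMM 3 were higher and 0 lower, beside 26.1% and 17.3% of all genes. Pfdn4 (1.503), Pfdn2 (0.97) and Vbp1 (0.79) were higher under all 3 scalings. Pfdn5 (-0.69), Cct5 (-0.60) and Pfdn6 (-0.60) were lower in CPM only. Pfdn4 went from 6.56 CPM in Ctrl to 12.1 in LP1 and 18.6 in LP4. Pfdn2 went from 32.6 to 56.7 and 63.8 CPM, and these prefoldin subunits with Hspb11 were the 3 genes already past 1.5-fold at 1 h. Hspb11, listed with the small heat shock proteins by name and known as a subunit of intraflagellar transport, was at 5.83, 14.7 and 14.3 CPM.

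Of the 10 small heat shock proteins listed, Hspb11 alone reached 5 CPM. Hspb6 was at 3.28, 2.67 and 2.67 CPM and Cryab at 2.49, 3.13 and 2.17 CPM. The other 7 were under 1 CPM, and Hspb3 and Cryaa had 0 UMIs in each library, under the level of 3 UMIs that corresponds to 0.0841, 0.0572 and 0.0489 CPM. Hspb1 was found with 5, 22 and 18 UMIs. Of 9 genes listed as mitochondrial chaperones, proteases among them, Hscb alone passed 1.5-fold at LP4 over Ctrl in CPM, at -0.60. Of all genes, 24.4% were lower and 19.7% higher. Hscb did not pass 1.5-fold under TMM or median of ratios. The list's median was -0.34 in CPM, beside -0.09 for all genes. The mitochondrial HSP70, Hspa9, was at 89.0, 110 and 101 CPM.

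Of 10 chaperones of the endoplasmic reticulum, 0 passed 1.5-fold in any comparison in CPM, and Dnajc10 (0.43 at LP4 over Ctrl) passed it under TMM and median of ratios. In CPM, the shares of all genes higher and lower were 4.29% and 3.28% at LP1 over Ctrl. They were 19.7% and 24.4% at LP4 over Ctrl, and 16% and 19.9% at LP4 over LP1. Hspa5, the HSP70 of this compartment known as BiP, was at 715, 653 and 818 CPM, and Hsp90b1, its HSP90, at 505, 503 and 500.4 CPM. Among the heat shock factors, Hsf2 was at 17.2 CPM in Ctrl (615 UMIs), 16.2 after 1 h (848 UMIs) and 28.2 after 4 h (1733 UMIs). Its log2 ratio of 0.71 at LP4 over Ctrl (0.58 to 0.85) stayed past 1.5-fold under each scaling. Hsf1 was near its Ctrl level over all kept cells but not in every cluster, as given above. Hsf3, Hsf4 and Hsf5 stayed under 1 CPM.

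**Figure D5:**
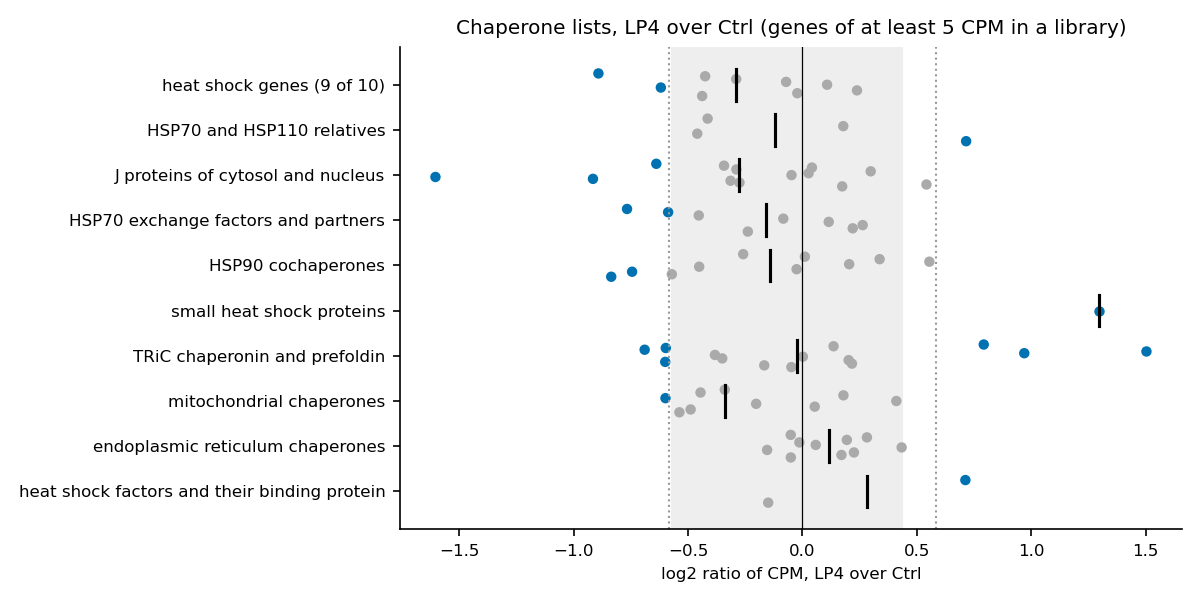
Points give the log2 ratio of CPM at LP4 over Ctrl for each gene of at least 5 CPM in a library, by chaperone list, with the list's median as a black bar, dotted lines at 1.5-fold, and shading over the middle 50% of all 9517 genes. Dnajb4 (-1.60) is farthest to the lower side, Pfdn4 (1.503) and Hspb11 (1.29) are farthest to the higher side, and the chaperones of the endoplasmic reticulum lie within the dotted lines.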

How the data were processed

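The authors processed 3′ droplet libraries of 3 samples with Cell Ranger (version 7.1.0 in the submitters' processing notes) against the mouse build mm10, and the deposited matrices hold raw UMI counts per gene and barcode. Whether doublets had been removed is not given in the sources used here. Barcodes with over 500 UMIs, over 500 genes and under 5% mitochondrial UMIs were kept, the limits the study states (it gives fewer cells after them than the 15806 kept here, and the reason is not given), and UMIs were summed per library (35688939 to 61402275). Levels are CPM with exact Poisson intervals, ratios carry exact conditional binomial intervals and shares exact binomial intervals, all at 95% and for counting error only. Genes of at least 5 CPM in 1 library entered counts over all genes, with 1.5-fold as the limit. Cells were thinned to 2000 UMIs for shares, leaving out 122, 13 and 45 cells. Clusters (scanpy 1.11.5, Leiden resolution 0.5) were built on 2000 variable genes of 5183 that were within 1.5-fold between libraries, without chaperone, ribosomal protein and mitochondrial genes, each library centred on its own mean. TMM factors came from edgeR 4.0.16. The ratio script was tested on simulated data with known changes and counting error only, which is no check on variation between libraries. The genes named were all 10 members, list genes past 1.5-fold and for Hspa1a, Hspa8 and Hspd1, the 3 genes of at least 50 CPM whose log2(CPM + 10) correlated most over clusters and libraries. Others (Bag3, Hspb6, Cryab, Hspa9, Hspa5, Hsp90b1, Hspb1, Dnaja2, Ptges3, Dnajc10) were chosen after their values were seen. The members and lists were chosen with earlier results of these data known. Positions are from GENCODE vM21 and promoters from RefSeq.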

Additional observations from a re-analysis of the deposited data

How the results depend on the processing

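No paired analysis was possible because each condition has 1 library. Under TMM and median-of-ratios scaling 1 member in place of 2 was at least 1.5-fold lower at LP4 over Ctrl (Hsph1), and the median log2 ratio of the 10 genes was -0.011 and 0.026 in place of -0.18. At LP4 over LP1 that median was -0.14 under median of ratios, in place of -0.27. Over all genes, the split of higher and lower at LP4 over Ctrl was 19.7% and 24.4% in CPM, 26.1% and 17.3% under TMM, and 27.4% and 15.9% under median of ratios. Without the minimum of 5 CPM, 15.0% of all genes were higher and 19.0% lower at LP1 over Ctrl, 25.9% and 36.1% at LP4 over Ctrl, and 25.5% and 29.5% at LP4 over LP1. At a 2-fold limit 0 members were lower at LP4 over Ctrl and 0 at LP4 over LP1, while Hspa1b was still higher (2.52-fold and 3.20-fold). The share of all genes past 2-fold is not given, so these counts cannot be set beside it. Hspa1b stayed at least 1.5-fold higher at LP4 over Ctrl (1.29 to 1.54) and over LP1 (1.66 to 1.81), and Hsph1 lower (-0.95 to -0.69 and -0.96 to -0.79), under all 9 alternatives that changed cells or scaling, among them every deposited barcode, clusters A to F alone, and leaving out the 5% of cells with most UMIs or barcodes found in more than 1 library. Small ratios had no settled sign under these alternatives, namely Dnajb1 and Hspe1 at LP1 over Ctrl, Hspa8 and Hsf1 at LP4 over Ctrl, and Hspa1a and Hspa8 at LP4 over LP1. The scalings by cluster were added after seeing the data. With 63 UMIs of Hspa1b in Ctrl, cluster values of that gene rest on few counts. With 1 library a condition, a difference between conditions and a difference between libraries cannot be told apart.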
